A study of Pyrus syriaca and Pyrus pyrifolia and Pyrus communis with 12 samples.

Results

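The miR166, miR171 and miR172 families are small RNAs whose best known targets are transcription factors of meristems, organ polarity and floral development. Here they are described in pear stigmas and in the fluid that the stigma secretes. The members are the 7 mature miRs of these families, named after their apple (mdm) entries in miRBase, that the presence rule of the study kept: mdm-miR166a, mdm-miR171c, mdm-miR171g, mdm-miR171m, mdm-miR172a, mdm-miR172d and mdm-miR172m. They were chosen by name from 355 unique mature Rosaceae sequences in the deposited count table, of which 120 had a read. Since that rule kept them, their presence is a description and not a finding.

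Small RNA was sequenced from stigma exudates and from stigma tissue of 6 pear genotypes at 12 hours after anthesis (HAA), without pollination, with 1 library per tissue and genotype. The 3 wild P. syriaca genotypes came from the Golan site at 900 m, the Manara site at 450 m and the SASA site at 830 m, and the cultivated trees were P. pyrifolia Hosui and Shinsui and P. communis Spadona, all at 430 m. Each exudate library pooled rinses of many flowers of 1 genotype, each stigma library lobes of several flowers, from branches cut in the field and kept overnight in a growth room. All counts are reads per mature miR, and a share is a percentage of the miR reads of a library. The exudate libraries held 27 to 176 miR reads (422 in all), with Manara the deepest, and the stigma libraries 199 to 1777 (5276 in all). A miR with 0 reads could therefore hold up to 1.70% of the Manara exudate and up to 11.1% of the SASA exudate, against up to 0.169% of the Manara stigma, taking 3 reads as the limit that a count of 0 allows. These limits and all intervals cover counting error only. They also take each read as a separate molecule, although no molecular identifiers are described for these reads. A lower share of a miR cannot be told apart from a higher share of the other miRs in the same library.

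Plant miRs guide an Argonaute protein to near-complementary transcripts, which are cleaved opposite the middle of the miR or held back from translation. miR166 acts on class III homeodomain leucine zipper (HD-ZIP III) genes, which set the upper side of lateral organs, pattern the vasculature and maintain the shoot meristem. miR171 acts on HAIRY MERISTEM (HAM) genes, GRAS family factors that keep meristem cells undifferentiated. miR172 acts on APETALA2 (AP2) and its TARGET OF EAT relatives, which specify floral organs and delay flowering. These roles are best known from Arabidopsis and are given as background.

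The mature sequences show how closely the counted miRs are related, and which could share a read. Each is written 5′ to 3′ as in the deposited table, with the seed (bases 2 to 8) in capitals. The first 7 are the members and the last 4 are relatives from the same families.
mdm-miR166a: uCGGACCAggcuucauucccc
mdm-miR171c: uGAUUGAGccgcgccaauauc
mdm-miR171g: uGAUUGAGccgugccaauauc
mdm-miR171m: uUGAGCCGugccaauaucaca
mdm-miR172a: aGAAUCUUgaugaugcugca
mdm-miR172d: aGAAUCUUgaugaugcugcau
mdm-miR172m: aGAAUCUUgaugaugcugcag
mdm-miR171f-3p: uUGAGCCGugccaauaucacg
mdm-miR171j: uUGAGCCGcgccaauaucacu
mdm-miR172i: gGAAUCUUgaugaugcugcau
mdm-miR172l: gGAAUCUUgaugaugcugcag

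The miR171 members fell into 2 seeds. mdm-miR171c and mdm-miR171g shared their seed and differed by C12U. Here and below the base of the miR named first is given, then the position from the 5′ end, then the base of the other miR. mdm-miR171m had another seed because it starts 3 bases further along: the 18 bases from position 4 of mdm-miR171g are those from position 1 of mdm-miR171m. Between mdm-miR171f-3p and mdm-miR171m the difference was G21A. The miR172 sequences all carried the same seed. mdm-miR172a is 20 bases long and is contained whole in mdm-miR172d and mdm-miR172m, which differ from each other by U21G at their last base, while mdm-miR172i and mdm-miR172l start with another base (A1G between mdm-miR172d and mdm-miR172i). The sequence of mdm-miR166a stood under 170 names in the deposited alias list, 10 of them from apple, and is that of ath-miR166a-3p of Arabidopsis. mdm-miR171c equals ath-miR171a-3p, mdm-miR172d equals ath-miR172a and mdm-miR172m equals ath-miR172c, whereas mdm-miR171g, mdm-miR171m and mdm-miR172a had no Arabidopsis name among their aliases. The table places the apple precursor of mdm-miR166a on contig MDC011683.626 (7710 to 7881, plus strand), that of mdm-miR171c on MDC013694.297 (5292 to 5413, plus strand), that of mdm-miR171g on MDC016463.170 (5131 to 5205, minus strand) and that of mdm-miR172d on MDC010472.239 (30030 to 30162, plus strand). The other 3 members have no position there, and gene annotation around these positions was not used here. The pipeline of the authors allowed up to 7% of bases to mismatch, and 1 base of 21 is 4.76%. A read could therefore count towards several of these rows, and the table does not show which reads they share.

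The members were rare. They summed to 8 of 422 exudate reads (1.90%) and 30 of 5276 stigma reads (0.569%). Their totals over the 12 libraries ran from 3 reads (mdm-miR166a and mdm-miR171g) to 8 reads (mdm-miR172d), against a median of 5 reads over the 120 miRs with a read, and 3 members stood at or below that median. Of all 23 rows of the families, 10 had a read, and the 6 rows named as 5p arms had none.

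**Figure D1:**
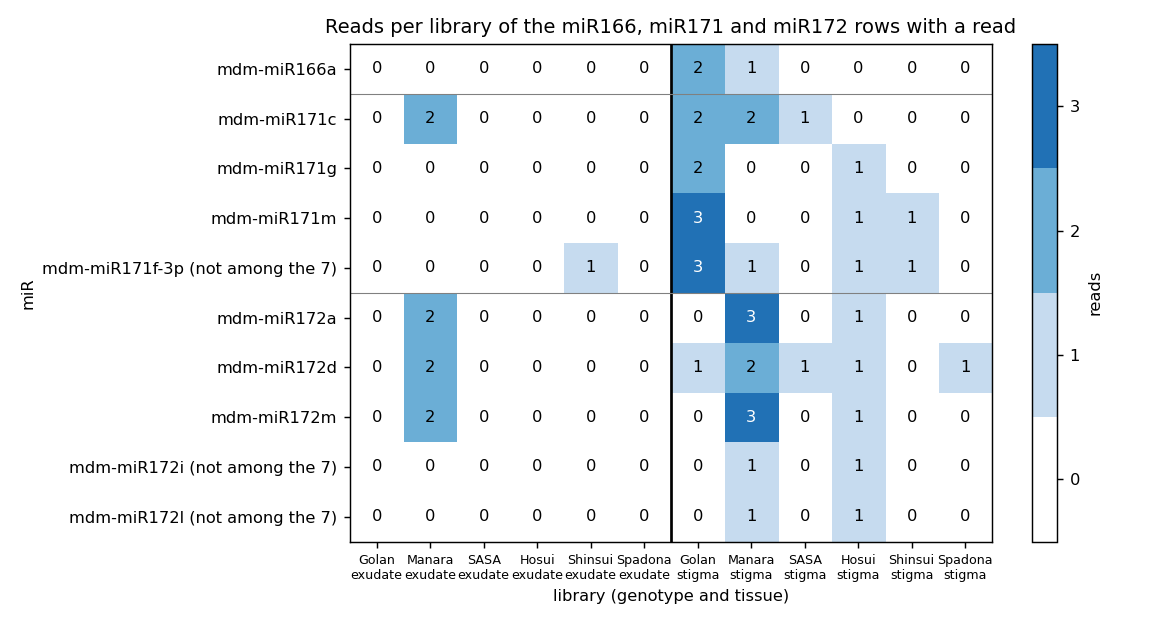
Reads of each miR166, miR171 and miR172 row with a read (vertical axis) in each of the 12 libraries (horizontal axis, exudates left of stigmas and P. syriaca genotypes left of cultivated ones in each tissue); the number and the shade of a cell give the reads. The exudate reads of the 7 members all lie in the Manara column, with 2 reads for each of 4 miRs.

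mdm-miR166a was read in stigma tissue of wild pears and nowhere else. It had 0 reads in all 6 exudates, against 2 reads in the Golan stigma and 1 read in the Manara stigma, and 0 reads in the SASA, Hosui, Shinsui and Spadona stigmas. Its share was 0.121% in the Golan stigma (95% Wilson interval 0.0331 to 0.439%) and 0.0563% in the Manara stigma. The limits for a count of 0 in the Hosui (0.890%), Shinsui (1.51%) and Spadona (0.586%) stigmas lie above both values, so a difference between wild and cultivated stigmas was not detectable at this depth. At its stigma shares, 0.159 reads would fall in the 6 exudates together, so its absence there was not detectable as a difference either.

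Of the miR171 members, mdm-miR171c was read in exudate and stigma, and mdm-miR171g and mdm-miR171m in stigma alone. mdm-miR171c had 2 reads in the Manara exudate and 0 in the other exudates, against 2, 2 and 1 reads in the Golan, Manara and SASA stigmas and 0 in the 3 cultivated stigmas. mdm-miR171g had 0 exudate reads, against 2 reads in the Golan stigma and 1 in the Hosui stigma. mdm-miR171m had 0 exudate reads, against 3 reads in the Golan stigma and 1 each in the Hosui and Shinsui stigmas. mdm-miR171c was not read in the 3 cultivated stigmas, but at its pooled wild stigma share 1.24 reads would fall there, and the limits for a count of 0 (0.586 to 1.51%) lie above its wild shares of 0.113 to 0.126%, so no difference was detectable at this depth.

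The relatives of miR171 bear on these counts. mdm-miR171f-3p had 1 read in the Shinsui exudate, against 3, 1, 1 and 1 reads in the Golan, Manara, Hosui and Shinsui stigmas, and its counts equalled those of mdm-miR171m in 10 of 12 libraries. The rule of the study set it aside because of its single exudate read. mdm-miR171j, which shares 18 bases with mdm-miR171c in the shifted frame, had 0 reads in all 12 libraries. By row, the form with C at the C12U base thus had reads in 1 frame and the form with U in both. A read with 1 mismatched base could count towards either form, so the base in the reads themselves is not known. The authors' matching also allowed an offset of up to 11 bases, so the frame of the reads is not known either.

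All 3 miR172 members were read in exudate and stigma. mdm-miR172d, the most widespread member, had 2 reads in the Manara exudate and 0 in the other exudates, against 1, 2, 1, 1 and 1 reads in the Golan, Manara, SASA, Hosui and Spadona stigmas and 0 in the Shinsui stigma. mdm-miR172a had 2 reads in the Manara exudate, against 3 reads in the Manara stigma and 1 in the Hosui stigma. mdm-miR172m had the same count as mdm-miR172a in all 12 libraries, and since its sequence is that of mdm-miR172a plus a last base, these may not be separate molecules. mdm-miR172i and mdm-miR172l each had 1 read in the Manara stigma and 1 in the Hosui stigma. The Hosui stigma thus showed 1 read on each of 5 miR172 rows. Counting only the highest member row per library, as if those reads were shared, gave 2 miR172 reads in the Manara exudate in place of 6 and 3 in the Manara stigma in place of 8.

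The study looked for miRs in exudate beside those of the stigma that secretes it. The 8 exudate reads of the members all came from the Manara library, where mdm-miR171c, mdm-miR172a, mdm-miR172d and mdm-miR172m each held 1.14% (95% Wilson interval 0.312 to 4.05%). In the Manara stigma the share of mdm-miR171c was 0.113%, which gives an exudate to stigma ratio of 10.1 with an exact counting interval of 0.732 to 139. The ratio for mdm-miR172d was the same, and that for mdm-miR172a and mdm-miR172m was 6.73 (0.562 to 58.8). Each of these 4 intervals includes 1, and the other 3 members had no exudate read. The summed miR172 share was 3.41% in the Manara exudate (95% Wilson interval 1.57 to 7.24%) and 0.450% in the Manara stigma (0.228 to 0.886%), a ratio of 7.57 with an exact counting interval of 2.17 to 24.9. That interval takes the reads of 3 near-identical rows as separate. Nor does any of these intervals allow for the choice of Manara, the only exudate library with reads of the members. With the highest row alone, 2 reads in exudate and 3 in stigma, the ratio was 6.73 (0.562 to 58.8).

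Manara was also the deepest exudate library. Of the 61 miRs with an exudate read, 12 had all such reads in Manara, and of the 28 miRs present in an exudate (2 reads or more), 10 were present in Manara alone. The 4 members were among both. Without the Manara genotype, no member was present in an exudate. At the stigma shares of each genotype, 2.56 reads of the 7 members would fall in the 6 exudates and 1.09 of them in Manara, where 8 were observed; these sums count near-identical rows several times, and no test was made of them. The part of depth in these counts was not tested.

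**Figure D2:**
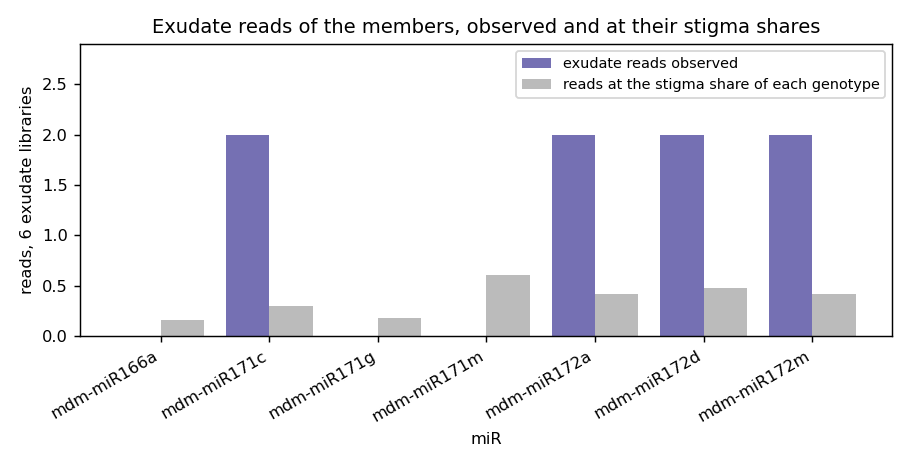
Reads of each member over the 6 exudate libraries (purple bars, left) and the reads that its share in the stigma of each genotype would give at the depth of the exudates (grey bars, right); bars start at 0 and carry no error. Observed reads are 2 for 4 members and 0 for the other 3, whose bars at the stigma share lie between 0.159 and 0.609 reads.

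Summed over members, miR172 averaged 0.568% ± 1.39 in exudates and 0.287% ± 0.334 in stigmas (SD, n = 6 each). miR171 averaged 0.189% ± 0.464 in exudates and 0.293% ± 0.244 in stigmas, and miR166 0% in exudates and 0.0295% ± 0.050 in stigmas (SD, n = 6 each). Without Hosui the miR172 stigma mean was 0.166%, and without Golan the miR166 stigma mean was 0.0113%. The exudate means rest on Manara alone, with 3.41% for miR172 and 1.14% for miR171, while 5 of 6 stigmas held a read of each of these families. The SD exceeded the mean in each family sum with a read other than miR171 in stigma.

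**Figure D3:**
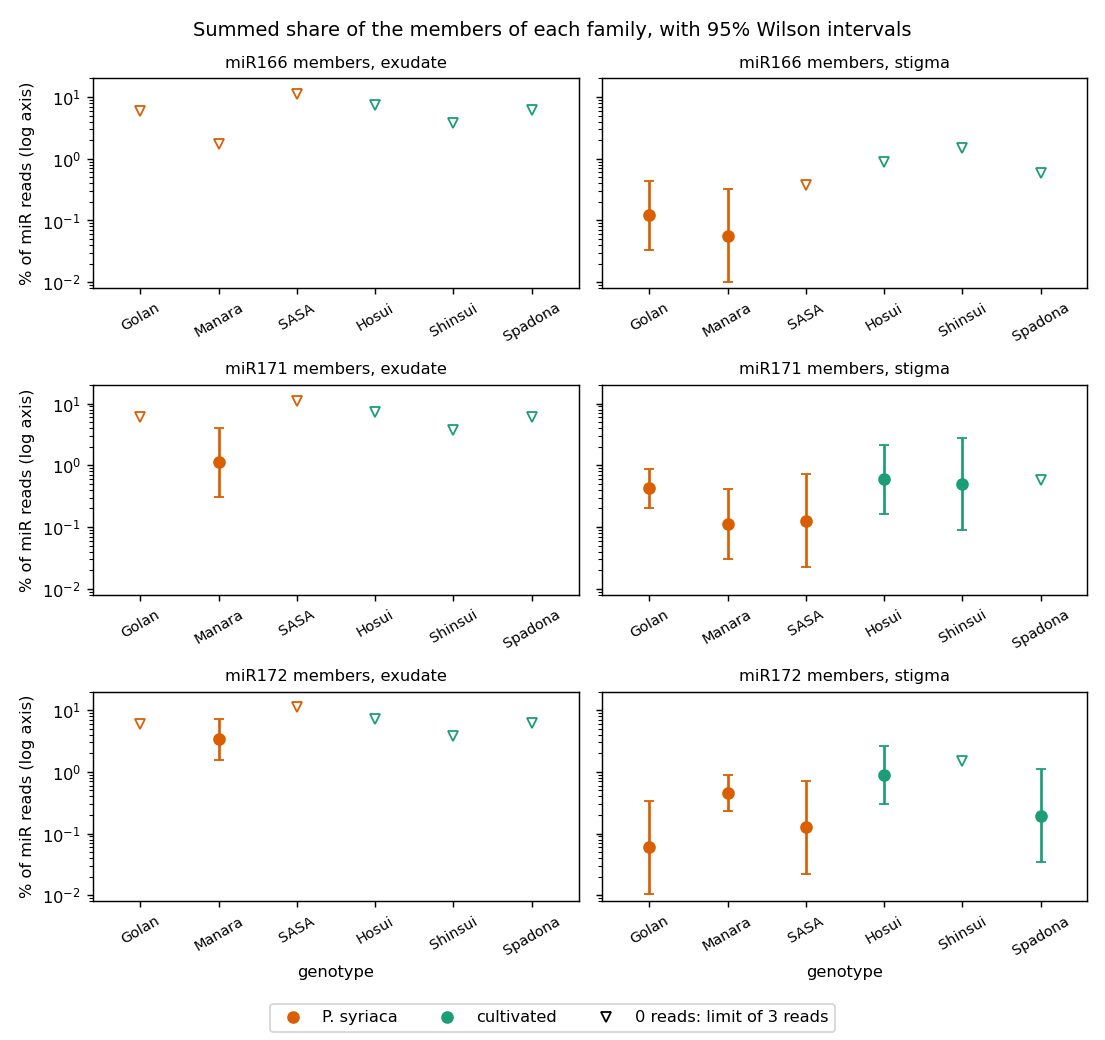
Summed share of miR reads (%, log axis) of the members of miR166, miR171 and miR172 by genotype, exudate panels left of stigma panels; points with bars are shares with 95% Wilson intervals, and open triangles mark the limit of 3 reads where a library had 0 reads. Every exudate triangle stands above every measured stigma share, and the Manara exudate holds the only exudate points, at 1.14% for miR171 and 3.41% for miR172.

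The members were too rare for most tests between exudate and stigma, and those that covered a member called none. In edgeR's quasi-likelihood test over the 12 libraries, 3 miRs had enough reads to be tested, 0% of them were called (adjusted p under 0.05; 1 at an unadjusted p under 0.05, and DESeq2 called 1, mdm-miR164b), and no member was among the 3. Without the filter on low counts, edgeR called 6 of 120 miRs (5%), all lower in exudate, and 0 of the 7 members. The log2 ratios of exudate over stigma in that fit ran from -2.66 (mdm-miR171m, edgeR adjusted p = 0.400) to 0.50 (mdm-miR172a and mdm-miR172m, edgeR adjusted p = 0.816). With the genotype as a replicate block the log2 ratio of these miRs was -0.075, so its direction turned (edgeR adjusted p = 0.993). With a minimum of 10 reads, exact sign flips of the share over the 6 genotypes covered 35 miRs, none of them a member, and 0% were called. The smallest sign-flip p is 0.03125, and the miRs at it had an adjusted p of 0.273. A call would have needed far more miRs at that p. With a minimum of 5 reads, 62 miRs including 5 members were covered. mdm-miR172d was higher in exudate in 1 genotype and lower in 4 (exact sign-flip p = 1). mdm-miR171m had no exudate read and stigma reads in 3 genotypes, so it could only come out lower, and its smallest possible p was 0.25; this is no test of it.

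In stigma tissue, wild pears gave 23 member reads of 4228 miR reads and cultivated pears 7 of 1048. miR171 averaged 0.220% ± 0.175 in P. syriaca stigmas and 0.365% ± 0.320 in cultivated stigmas, and miR172 0.212% ± 0.209 in P. syriaca stigmas and 0.362% ± 0.468 in cultivated stigmas (SD, n = 3 each). miR166 averaged 0.0590% ± 0.0604 in P. syriaca stigmas, against 0 reads in cultivated stigmas. The cultivated miR172 mean rests on Hosui (0.890%, 1 read on each member row): without it the mean is 0.0977% (n = 2), below that of P. syriaca, so the direction turns on this library. In each family the groups overlapped and the difference was smaller than the SD of the more variable group. The cultivated libraries were shallower, with 199 to 512 miR reads, against 794 to 1777 in the wild ones, so species, altitude and depth cannot be told apart here.

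edgeR tested 13 miRs between P. syriaca and P. pyrifolia stigmas and called 7.69% of them, which is mdm-miR482d alone, lower in P. syriaca; no member had enough reads to be tested. Hosui and Shinsui are the only P. pyrifolia genotypes, and leaving out either leaves 1 library of that species. Whether the call depends on either of them could therefore not be checked. Without the filter, edgeR called 0 of 110 miRs (9 at an unadjusted p under 0.05; with the filter DESeq2 called 1), and each of the 7 members had an adjusted p of 0.796 in edgeR. The exact permutation test of wild against cultivated stigma shares covered 30 miRs with at least 10 stigma reads, which included no member, and called 0%; 3 against 3 libraries cannot go below p = 0.1.

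Other miRs with known roles in meristems and flowers were set beside the members from a fixed list. This list held miR156 (SPL genes of phase change), miR159 (GAMYB), miR160 and miR167 (auxin response factors), miR164 (CUP-SHAPED COTYLEDON genes of organ boundaries), miR319 (TCP), miR390, miR394 and miR396 (growth-regulating factors), as 46 rows of which 32 had a read. They summed to 83 exudate reads and 2478 stigma reads, of which miR164 gave 41 exudate and 1992 stigma reads. Sign flips covered 14 of these rows and called 0. Over the 35 miRs tested, even the smallest possible sign-flip p of 0.03125 had an adjusted p of 0.273. The lack of calls is therefore no result about these rows. Of the 12 rows among them that the study kept, 2 were common to both tissues, and of the 7 members 4 were. These 4 include the near-identical mdm-miR172a, mdm-miR172d and mdm-miR172m, and each is common through 2 reads in the Manara exudate alone. Over all 49 miRs kept, 25 were common and 24 stigma-specific. The common miRs had a median of 28 stigma reads and the stigma-specific ones 5.5, and the 4 common members had 4 to 6.

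The possible function of the members was read from the targets that the authors predicted in Arabidopsis with psRNATarget. The members took 41 of 236 listed pairs of miR and locus and named 18 loci. In the table of exudate miRs they made up 27 of 73 pairs (37.0%) with 4 of 19 miRs and 11 of 47 loci. These 27 pairs count near-identical rows several times, since mdm-miR172a, mdm-miR172d and mdm-miR172m were each listed with the same 8 loci. In the table of stigma-specific miRs the members made up 14 of 163 pairs (8.59%) with 3 of 23 miRs and 10 of 120 loci. The HAM loci, 3 in number, were in both. These are predictions from sequence in another species, and no transcript was measured.

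The predicted sites show which members share targets and where they pair less well. They are written 5′ to 3′ on the transcript, with the 7 bases opposite the seed in capitals, for loci that stand for each kind of pairing.
AT1G52150 for mdm-miR166a: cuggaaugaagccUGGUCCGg
AT2G34710 for mdm-miR166a: uugggaugaagccUGGUCCGg
AT2G45160 for mdm-miR171c and mdm-miR171g: gauauuggcgcggCUCAAUCa
AT2G45160 for mdm-miR171m: agggauauuggcgCGGCUCAa
AT3G47170 for mdm-miR171g: gguauuggcauggCUCAGUUu
AT4G36920 for mdm-miR172m: cugcagcaucaucAGGAUUCu

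mdm-miR166a was paired with 6 loci, which included all 5 HD-ZIP III genes of a fixed list (AT1G52150, AT1G30490, AT4G32880, AT2G34710 and AT5G60690) and AT4G03250. Of its 21 bases, 17 or 18 formed Watson-Crick pairs. Bases 20 and 21 were unpaired and base 1 formed a G:U pair at all 6 loci, and AT2G34710, AT5G60690 and AT4G03250 had a further G:U pair at base 17. All 7 seed bases were paired at each locus. The files list the same site, positions 1268 to 1288 of the transcript, for AT1G52150, AT1G30490 and AT4G32880, so those entries may not all carry the right locus.

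mdm-miR171c paired with the site of the 3 HAM loci (AT2G45160, HAM1; AT3G60630, HAM2; AT4G00150) at 21 of 21 bases. For AT2G45160 this site lay at positions 1003 to 1023 of the transcript. The C12U change turned this into 20 Watson-Crick pairs and a G:U pair at base 12 for mdm-miR171g. mdm-miR171m reached the same transcripts 3 bases upstream with 18 Watson-Crick pairs, a G:U pair at base 9 and unpaired bases 19 and 21. mdm-miR171g and mdm-miR171m were also paired with AT3G47170, at 16 Watson-Crick pairs each and with 4 and 3 G:U pairs. That pair of mdm-miR171g was the only one of the 41 without Watson-Crick pairs at both bases 10 and 11, between which plant miRs guide cleavage.

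The miR172 members were each paired with the same 8 loci. These were all 6 genes of the fixed AP2 list (AT4G36920, AT2G28550, AT5G60120, AT5G67180, AT2G39250 and AT3G54990), AT5G65790 and AT3G47360. Every one of these 24 pairs had a G:U pair at base 7, inside the seed, and 18 to 20 Watson-Crick pairs. The last base of mdm-miR172d and mdm-miR172m, which is where they differ, was paired with sites that begin with A in mdm-miR172d and with sites that begin with C in mdm-miR172m, and was unpaired in the reverse cases. The authors' pairs give 1 site under different loci for different miR172 members in 7 of 8 sites listed for more than 1 of them. The locus of a single miR172 pair is therefore uncertain. The same 8 loci were listed for each member, but whether each of these loci carries such a site was not checked. For miR171, 4 of 4 shared sites had 1 locus.

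**Figure D4:**
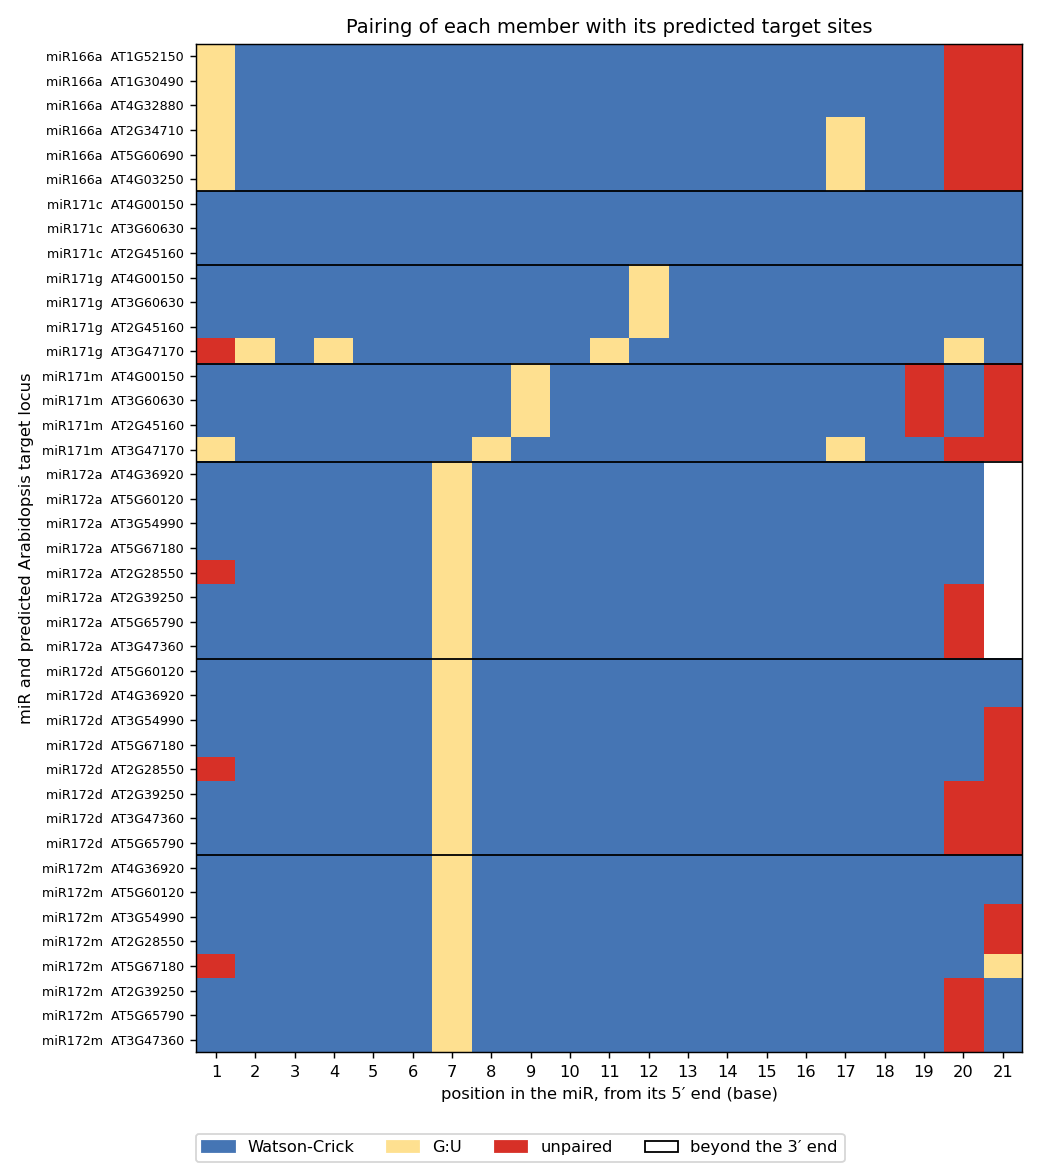
Pairing state of each base of the miR (horizontal axis, position in bases from the 5′ end) for the 41 predicted pairs of members and Arabidopsis loci (vertical axis, grouped by miR); blue is a Watson-Crick pair, yellow G:U, red unpaired and white beyond the end of the 20-base mdm-miR172a. mdm-miR171c is paired at all 21 bases with its 3 loci, every miR172 pair has yellow at base 7, and unpaired bases lie mostly at 19 to 21.

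The GO terms that the authors listed for these targets were searched for the loci of the members. All 29 terms of the exudate table held at least 1 of their 11 loci. Biosynthetic process (11 of 24 loci), primary metabolic process (11 of 27) and metabolic process (11 of 32) held all of them. DNA binding held 10 of its 18 loci from the members, and transcription factor activity 10 of 16, of which 3 were HAM loci and 7 loci of miR172. In the stigma table, 48 of 49 terms held at least 1 of 10 loci, and the broad terms cell, cell part, intracellular and intracellular part held all 10. Among narrower terms, chosen after their values were seen, lipid binding had 5 of its 7 loci from the members, all of them HD-ZIP III genes, whose proteins carry a START lipid-binding domain. Cell differentiation had 8 of 15 loci in the stigma table and 5 of 7 in the exudate table. Flower development had 3 of 16, namely AT1G30490, AT1G52150 and AT2G34710. No enrichment was computed from these counts.

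The authors also listed 25 Arabidopsis pollen genes among the exudate targets, since the exudate is where pollen lands. The members account for 5 of them, which is 5 of their 11 exudate loci (45.5%), against 25 of all 47 loci in the exudate table (53.2%). HAM1 and HAM2, named there as GRAS family transcription factors, were paired with mdm-miR171c, and RAP2.7 (AT2G28550), TOE2 (AT5G60120) and HSD3 (AT3G47360, a hydroxysteroid dehydrogenase) with the miR172 members. All the exudate reads behind these pairs are from the Manara library.

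The miRs outside the families with the pattern most like that of miR172 were sought by Spearman correlation of shares over the 12 libraries among 35 candidates. They were fve-miR164c (rho = 0.741, 18 reads), mdm-miR164b (rho = 0.651, 2000 reads) and fve-miR396a-3p (rho = 0.592, 26 reads). The libraries differ in depth and many shares are 0, so these values are descriptions. miR172 reached the minimum of 20 reads only as a sum over near-identical rows that may share reads. miR166 and miR171 had fewer than 20 reads and were not compared.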

How the data were processed

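Small RNA from 6 exudate and 6 stigma samples was made into libraries. Per the paper's methods, the authors trimmed reads with Cutadapt 1.1, matched them to Rosaceae miRs of miRBase release 22 with miRExpress (up to 7% mismatches, offset up to 11 bases, at least 50% overlap) and averaged rows of identical sequence. The deposited table holds whole-number counts of reads per unique mature sequence, not normalized. The precursor positions in the table carry no build name in any source used here. The deposited target and GO tables, made by the authors, hold predicted pairs and loci; their p-values and false discovery rates hold the authors' own comparisons and were not used, and the pairs are taken as listed.

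Wild genotypes were named by matching the labelled altitude to the collection sites of the study. Shares of miR reads, Wilson 95% intervals and limits of 3 reads for a count of 0 were computed with Python 3.11.15 and scipy 1.17.1. edgeR 4.0.16 (quasi-likelihood, TMM, filterByExpr, two-sided, FDR 0.05) compared exudate with stigma in all 12 libraries, and P. syriaca with P. pyrifolia in 5 stigma libraries. Two-sided exact sign flips over genotypes and exact permutations tested shares, with Benjamini-Hochberg adjustment over all miRs tested. DESeq2 1.42.0, other filters and scalings, left-out genotypes and blocked fits were alternatives. Exudate and stigma libraries were paired by tree genotype in the sign flips and in the blocked fits. The main edgeR fit and DESeq2 did not use this pairing. Over 35 miRs, the deviations of the paired libraries correlated at -0.0587 to 0.589. The stigma of the same genotype was the best match for the Golan and Shinsui exudates, but not for those of Manara, SASA, Hosui and Spadona. The labels do not say that the replicates of a species are more than single pools, so p-values measure the spread between these libraries.

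The genes named are the 7 members, family rows with a read, targets on fixed HD-ZIP III, HAM and AP2 lists, all other targets, GO terms with the most member loci and miRs with a like pattern. The rule meant to take other targets by best expectation, a value not analysed here, so all were named. Members and lists were chosen with earlier results of these data known.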

Additional observations from a re-analysis of the deposited data

Results flagged for a closer look

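In the exudates, 6 shares stood apart from the rest of their group, each because the Manara library held all the reads. The share of mdm-miR171c, of mdm-miR172a, of mdm-miR172d and of mdm-miR172m was 1.14% in the Manara exudate, against 0% in the other 5 exudates. Summed over members, miR171 was at 1.14% and miR172 at 3.41% in the Manara exudate, against 0% in the other 5. In all, 16 shares were examined this way, and these 6 rest on the same 8 reads. Chance flags about 1 in 20 groups of evenly measured values, but that rate does not apply here, since any miR read in 1 of 6 exudates alone stands apart in this way whatever its count. The Manara exudate was the deepest of the exudates, with 176 miR reads, and the limit for a count of 0 in the others was 3.80 to 11.1%, so their zeros allow shares as high as those of Manara.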

How the results depend on the processing

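Depth limits every value here: no member reached 10 reads. Between exudate and stigma, edgeR called 0 miRs, against 6 without the filter, 1 with DESeq2 and 1 (mdm-miR164b) with the genotype as a replicate block; leaving out each genotype in turn gave 0 to 1 (mdm-miR482a-3p, without Shinsui). The fit without the filter and with the replicate block, chosen after seeing the data, called 7 of 120 miRs and 0 members (adjusted p 0.750 to 0.993 in edgeR). Between P. syriaca and P. pyrifolia stigmas the 1 call became 0 without the filter and 0 with the replicate number as a block. It stayed 1 with any P. syriaca genotype left out. Leaving out Hosui or Shinsui leaves 1 P. pyrifolia library, so the weight of either could not be checked. These 2 species share only a replicate number. Members present in exudate fell to 0, against 4, when presence required 3 reads, and numbered 0 to 4 with a genotype left out, 0 being without Manara. Members present in stigma fell to 3, against 7, with 3 reads, and numbered 4 to 7 with a genotype left out, 4 being without Golan or without Manara. Without mdm-miR482d and mdm-miR164b in the total, the mean stigma share was 0.848% for miR171 and 0.822% for miR172, against 0.293% and 0.287%. Leaving out a genotype moved the mean stigma share of miR172 to 0.166% (without Hosui) and of miR166 to 0.0113% (without Golan), against 0.287% and 0.0295%, and the exudate means of miR171 and miR172 to 0% (without Manara); each shift was under 1 SD between libraries. Including these, 91 alternative values kept their direction and side of the threshold, or moved by less than the spread between libraries or less than 1.5 times. A further 7 moved by more, 5 were stronger and 4 weaker. Part of the 91 could not have changed. The miR166 share in exudate was 0% in every setting, and exact permutations of the stigma shares cannot go below p = 0.1.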
